A study of Homo sapiens with 16 samples.

Results

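ERK feedback genes are 10 genes chosen by name, 5 MAP kinase phosphatases (DUSP1, DUSP4, DUSP5, DUSP6 and DUSP10), the Sprouty genes SPRY2 and SPRY4, the Spred genes SPRED1 and SPRED2, and the transcription factor gene ETV5. All 10 were found by symbol among the 18332 genes of the expression table. RNA sequencing was done on MDA-MB-231 and on MDA-MB-468 cells, both human breast cancer lines labelled ER negative. Glucose was set at 5 mM as the control or at 25 mM to model hyperglycemia, and RNA was taken after 48 hours. With 4 replicates per line and glucose level, called low and high glucose below, there were 4 groups and 16 samples. Cells were treated in flasks, and no other agent or genetic change is named for either condition. For its glucose experiments, the paper describes conditioning in low-glucose medium and then culture in serum-free medium at either glucose level. Before that, MDA-MB-231 was grown in DMEM and MDA-MB-468 in RPMI, both with serum, and this difference cannot be told apart from the lines. MDA-MB-231 is a mesenchymal-like line, and MDA-MB-468 is a basal-like line with an amplified EGFR gene. Each is the line of a single donor, so that a difference between them describes these lines and no breast cancer subtype. The labels name no sequencing or culture batch, and any batch that followed the lines cannot be told apart from them.

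Growth factor receptors signal through RAS, RAF and MEK to the kinase ERK, which turns on the genes that then restrain it. MAP kinase phosphatases remove the activating phosphates from ERK or from the stress kinases p38 and JNK, while Sprouty and Spred proteins act upstream, between the receptor and RAF. Transcripts of DUSP6, SPRY4 and the PEA3 factors such as ETV5 are widely used in tumor cells as a readout of ERK output. The comparisons below ask how these genes responded to glucose in each line, whether the responses differed, and at what level each line kept them.

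Upstream sequence was looked up in the RefSeq promoter table (GRCh38.p14), from which windows of 7 of the 10 genes were read. The 250 bases before the transcript start matched GRCh37 once in each case. Shown here are the windows of DUSP1, the member with the largest fall in MDA-MB-231, and DUSP6, the member with the widest gap between the lines. DUSP1 is read from the minus strand of chr5:172198199-172198448 and DUSP6 from the minus strand of chr12:89746279-89746528, both 5′ to 3′, and capitals mark a CRE, the motif bound by CREB and related factors.

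DUSP1: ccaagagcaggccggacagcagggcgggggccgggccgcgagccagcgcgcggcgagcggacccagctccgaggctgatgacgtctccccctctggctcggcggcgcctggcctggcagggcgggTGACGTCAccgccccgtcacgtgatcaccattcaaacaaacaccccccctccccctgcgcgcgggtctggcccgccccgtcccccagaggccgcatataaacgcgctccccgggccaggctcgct
DUSP6: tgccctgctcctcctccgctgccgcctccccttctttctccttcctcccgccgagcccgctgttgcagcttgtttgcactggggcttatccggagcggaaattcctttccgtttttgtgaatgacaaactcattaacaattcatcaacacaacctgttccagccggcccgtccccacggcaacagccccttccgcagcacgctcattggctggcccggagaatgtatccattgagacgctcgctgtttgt

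Motifs were searched on both strands in the 250 upstream bases as CRE (TGACGTCA, in 1.65% of 35116 windows of all genes), AP-1 (TGANTCA, 6.57%), ETS (CCGGAAG, 8.52%) and the CArG box of serum response factor (1.16%). The spellings do not overlap one another. Over the 11 windows of the 7 members the search gave a single match, the CRE of DUSP1, whose first base lay at -125 from the start. Counted by gene, 2.03% of 27305 genes had a CRE in a window. None of these spellings was in the windows of DUSP6, DUSP10, SPRY2, SPRY4, SPRED1 or SPRED2.

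Values are reads per gene scaled to library size by the study's authors, called normalized reads here. Libraries held 14094597 to 24425916 reads, so that 3 reads came to between 2.14 and 3.43 normalized reads, and every value of the 10 genes lay above this floor. Replicates differed by more than counting error (chi-square per gene 2.03 to 5.2). Vimentin (VIM) stood at 89664 to 99379 in MDA-MB-231 against 15.8 to 35.4 in MDA-MB-468, and E-cadherin (CDH1) at 4.29 to 10.7 against 1941 to 2139, with ZEB1, CAV1 and AXL higher in the first line and EPCAM, KRT5 and EGFR in the second. The estrogen receptor gene ESR1 was at 0 to 2.92 in MDA-MB-231, against 38.2 to 69.7 in MDA-MB-468, whose label is also ER negative. Of 6 markers of leukocytes, endothelium and fibroblasts, 3 were matched (PTPRC, CD68 and COL1A1), with sums of 2352 to 2737 in MDA-MB-231 and 285 to 379 in MDA-MB-468. PTPRC, the defining leukocyte gene, reached at most 16.4, while CD68 made up most of the sum in MDA-MB-231 at 2081 to 2387. Their part in the results was not tested.

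**Figure D1:**
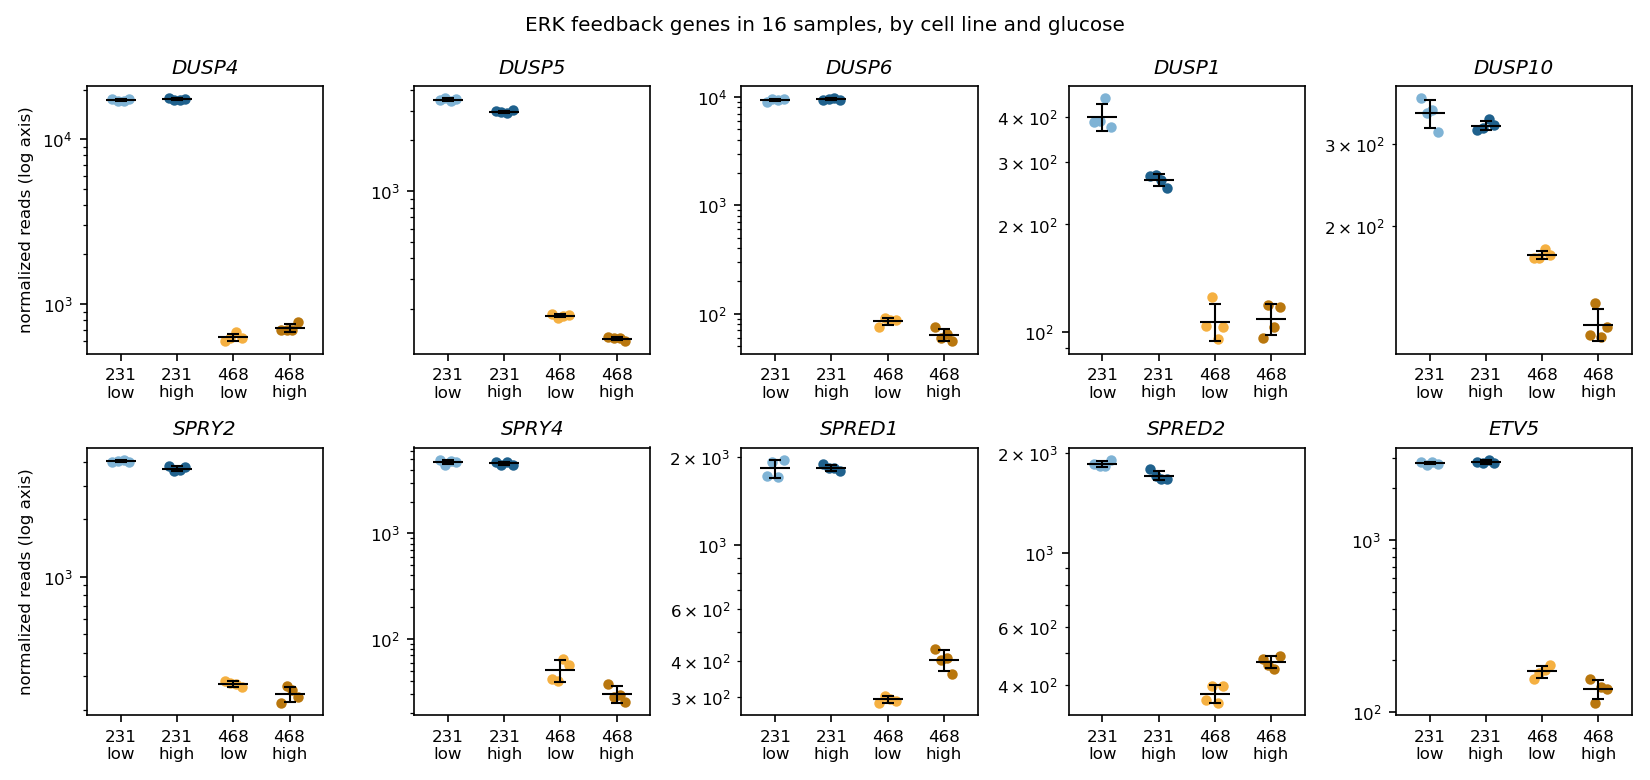
Normalized reads of the 10 genes on log axes with a scale of their own, a point for each sample, with the mean and SD of 4 replicates as bars; groups are both lines, named by their number, in low and high glucose. Every gene lies lower in all 8 MDA-MB-468 samples, and the glucose groups sit apart, among others, for DUSP1 in MDA-MB-231 and for SPRED1 in MDA-MB-468.

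The widest differences in the data lay between the lines. All 10 genes were lower in MDA-MB-468 than in MDA-MB-231 in low glucose (limma, adjusted p at most 8.13e-11), and the values of the lines overlapped for none of them. Of all genes tested, 85.4% differed between the lines, 40.4% lower and 45% higher in MDA-MB-468, and the 2 groups of values did not overlap for 80.5%. The difference exceeded 2 on the log2 scale for 8 of 10 members (all but DUSP1 and DUSP10), against 11.5% of all genes called lower by that much. It exceeded 4 for 5 of 10 (DUSP4, DUSP5, DUSP6, SPRY4 and ETV5), against 4.91% of all genes. The members were chosen with earlier results of these data known, so these shares are a description and no test of the set. The median over the members was -3.94, and over all genes tested 0.08. In bulk RNA, fewer cells making a transcript and less of it per cell cannot be told apart.

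**Figure D2:**
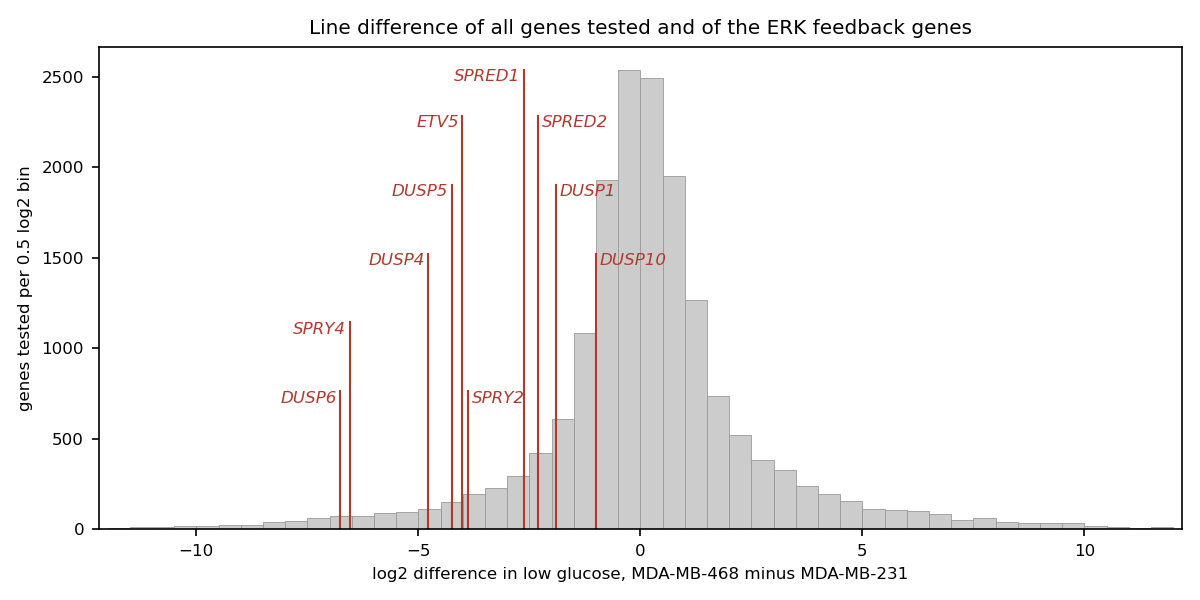
Distribution of the log2 difference between the lines in low glucose (MDA-MB-468 minus MDA-MB-231) over the 17115 genes tested, as genes per bin of 0.5, with a red line for each of the 10 members; the height of a red line has no meaning. All 10 lie left of 0, from -6.76 for DUSP6 to -1.01 for DUSP10.

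DUSP6 encodes the cytoplasmic phosphatase that acts on ERK with high selectivity. In MDA-MB-231 it stood at 9006, 9491, 9381 and 9455 normalized reads in replicates 1 to 4 of low glucose and at 9403, 9565, 9723 and 9381 in high glucose. MDA-MB-468 held 75.9, 90.7, 86.6 and 88.0 in low glucose and 75.8, 59.0, 65.2 and 56.5 in high glucose. Every MDA-MB-231 sample thus lay far above every MDA-MB-468 sample, with a ratio of means of 109 in low glucose (log2 difference -6.76 ± 0.07 SE) and 148 in high glucose. Only 1.75% of the genes tested had a lower log2 difference. SPRY4, which restrains signaling from the receptor to RAF, came next. Its MDA-MB-231 values were 4982, 4483, 4859 and 4692 in low and 4781, 4408, 4735 and 4452 in high glucose. In MDA-MB-468 they were 41.9, 39.8, 64.8 and 57.5 in low and 37.9, 28.4, 29.8 and 25.3 in high glucose. Means differed between the lines by 93.2 times in low glucose and 151 times in high glucose.

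DUSP4, a nuclear phosphatase, was at 17413, 17019, 17074 and 17557 in low-glucose MDA-MB-231 and at 17728, 17255, 17172 and 17564 in high-glucose MDA-MB-231. Its values in MDA-MB-468 were 596, 624, 677 and 619.8 in low and 701, 695, 697 and 782 in high glucose. The lines differed by 27.4 times in low glucose. DUSP5, a nuclear phosphatase selective for ERK, differed by 19.0 times and ETV5, a PEA3 transcription factor, by 16.2 times. SPRY2, the other Sprouty member, was 14.8 times higher in MDA-MB-231. Smaller ratios were found for the Spred genes, whose products bind RAS regulators at the membrane (SPRED1 6.18, SPRED2 4.94), for the stress-inducible phosphatase DUSP1 (3.75) and for DUSP10, which acts mainly on p38 and JNK (2.02). In high glucose the ratios ran from 2.45 for DUSP1 to 151 for SPRY4.

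Levels of different genes were compared as normalized reads per kb of the canonical transcript. In low-glucose MDA-MB-231 the order was DUSP4 at 3109 ± 47.0 (SD, n = 4), DUSP6 at 2573 ± 61.4, SPRY2 at 1767 ± 25.1, DUSP5 at 1408 ± 28.2, SPRY4 at 969 ± 44.1, ETV5 at 683 ± 11.6, SPRED2 at 412 ± 8.13, SPRED1 at 251 ± 17.9, DUSP1 at 199 ± 17.2 and DUSP10 at 135 ± 9.37. No neighbors in this order overlapped. In low-glucose MDA-MB-468 the top was SPRY2 at 119.7 ± 3.65 and DUSP4 at 113 ± 6.18, which overlapped, then SPRED2 at 83.5 ± 5.10, DUSP5 at 74.0 ± 1.87, DUSP10 at 66.9 ± 1.46, DUSP1 at 53.1 ± 6.30, ETV5 at 42.3 ± 3.41, SPRED1 at 40.6 ± 1.001, DUSP6 at 23.5 ± 1.79 and SPRY4 at 10.4 ± 2.47. Here ETV5 and SPRED1 also overlapped. DUSP6 moved from rank 2 to rank 9 and SPRY4 from rank 5 to rank 10. Among all genes with a length and reads in the group, DUSP6 stood at percentile 97.6 per kb in low-glucose MDA-MB-231 and at 30.8 in low-glucose MDA-MB-468, and SPRY4 at 92.4 and 22.4. The level of DUSP10 changed its percentile least, from 59.2 to 45.9.

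Summed per kb, the 5 phosphatases came to 7425 in low-glucose MDA-MB-231 and 331 in low-glucose MDA-MB-468, a ratio of 22.4, and the ratio in high glucose was 23.9. DUSP6 gave 34.7% of this sum in MDA-MB-231, against 7.10% in MDA-MB-468, both in low glucose. The share of DUSP10 was 1.82% and 20.2%, and that of DUSP1 2.68% and 16.04%, while DUSP4 gave the largest share in both lines (41.9% and 34.2%). The 4 Sprouty and Spred genes summed to 3399.8 and 254 in low glucose, a ratio of 13.4. SPRY4 held 28.5% of that sum in MDA-MB-231, against 4.09% in MDA-MB-468, and SPRED2 12.1% and 32.8%. The sums hold the members only. Other genes of both families are left out, among them the Sprouty gene SPRY1, at 585 per kb in low-glucose MDA-MB-231 and 160 in low-glucose MDA-MB-468. These shares describe transcripts and not phosphatase or Sprouty activity, which was not measured.

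**Figure D3:**
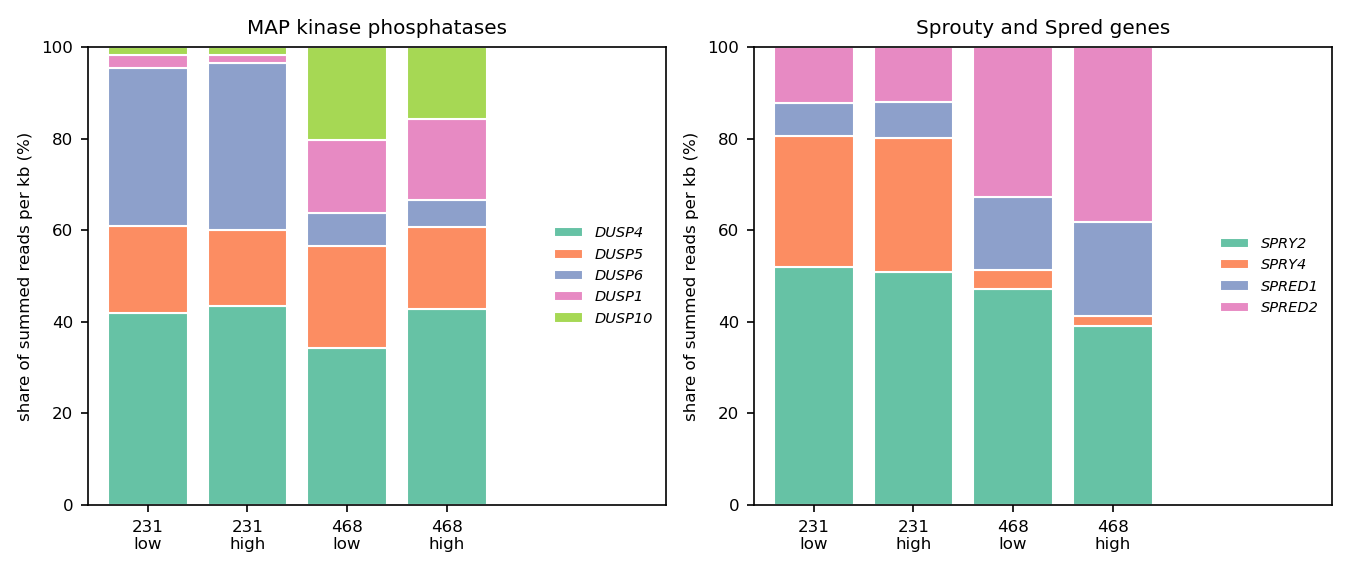
Share of each gene in the summed normalized reads per kb of the members of its family, in percent, as stacked bars of the mean over 4 replicates. Members are the 5 phosphatases (left) and the 4 Sprouty and Spred genes (right) in each group, and other genes of these families are left out. DUSP6 falls from 34.7% of the phosphatase sum in low-glucose MDA-MB-231 to 7.10% in low-glucose MDA-MB-468, and SPRY4 from 28.5% to 4.09% of the Sprouty and Spred sum.

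In MDA-MB-231, 4 of the 10 genes were lower in high glucose (DUSP1, DUSP5, SPRY2 and SPRED2) and 0 were higher, while the ERK readout genes DUSP6, SPRY4 and ETV5 did not pass the test. Of all 14884 genes tested in this line, 15.1% passed, 5.71% higher and 9.37% lower, which is 850 and 1395 genes. With quantile normalization these became 1027 and 1114 genes. The values of the glucose groups did not overlap for 4 of the 10 genes, the same 4 that passed, against 18.7% of all genes. The median log2 fold change of the members was -0.07 and that of all genes 0.00.

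DUSP1 had the largest change. Its values were 387, 390.4, 451 and 374 in low glucose and 273, 276, 266 and 253 in high glucose. All 4 high-glucose samples lay below all 4 low-glucose ones, and the mean fell by 33.4% (log2 fold change -0.58 ± 0.07 SE, limma adjusted p = 1.36e-05), with only 1.61% of the genes tested showing a lower fold change. DUSP5 stood at 3461, 3561, 3403 and 3525 in low glucose and at 2972, 2963, 2909 and 3009 in high glucose. The groups were again apart, and the mean fell by 15.03% (-0.23 ± 0.03, adjusted p = 3.43e-05). SPRY2 went from 4016, 4045, 4117 and 3982 to 3810.4, 3611, 3613 and 3750.3, a narrow but complete separation in which the mean fell by 8.51% (-0.13 ± 0.03, adjusted p = 0.00795). SPRED2 had the weakest call, from 1862, 1838, 1837 and 1915 to 1792, 1709, 1673 and 1678 (-0.12 ± 0.04, adjusted p = 0.0292). The SPRED2 mean fell by 8.05%, and its call was lost in 7 of 20 alternatives, among them without low-glucose replicate 1 (limma adjusted p = 0.0643) and without high-glucose replicate 2, 3 or 4 (adjusted p = 0.0676, 0.0905 and 0.0838). The SPRY2 call was lost with quantile normalization (adjusted p = 0.0596).

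For the other 6 genes in MDA-MB-231 the glucose groups overlapped. Their log2 fold changes ran from -0.09 ± 0.06 for DUSP10 (limma adjusted p = 0.426) to 0.03 ± 0.03 for DUSP6 (adjusted p = 0.560). The 95% interval for DUSP6 reached from -0.03 to 0.09 and that for ETV5 from -0.04 to 0.09. For SPRY4 it reached from -0.13 to 0.03 and for DUSP4 from -0.04 to 0.07. SPRED1 ran from 1705 to 1949 in low glucose, with its high-glucose values of 1781 to 1889 inside that range.

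In MDA-MB-468, 8 of the 10 genes changed and in both directions. DUSP5, DUSP6, DUSP10, SPRY4 and ETV5 fell, DUSP4, SPRED1 and SPRED2 rose, and DUSP1 and SPRY2 did not pass the test. Of all 15757 genes tested in this line, 47.6% passed, 24.9% higher and 22.7% lower. The groups did not overlap for 7 of the 10 genes, against 42.5% of all genes. The members' median log2 fold change was -0.26, beside 0.00 for all genes.

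The largest fall in MDA-MB-468 was that of SPRY4, whose mean fell by 40.5% (log2 fold change -0.72 ± 0.20 SE, limma adjusted p = 0.00698). Its 4 low-glucose values of 39.8 to 64.8 lay above its high-glucose values of 25.3 to 37.9 by a small margin, and it had the largest spread of the members, with a coefficient of variation of 23.7% in low glucose. DUSP6 fell by 24.8% (-0.41 ± 0.13, adjusted p = 0.0153). The lowest low-glucose value of DUSP6, 75.9, and its highest high-glucose value, 75.8, all but touched. ETV5 read 156, 170.3, 175 and 189.5 in low and 157, 114, 141 and 137 in high glucose. The ETV5 groups overlapped at a single sample of each, and the mean fell by 20.6% (-0.34 ± 0.10, adjusted p = 0.0132), a call that was lost with the gene-wise linear model (adjusted p = 0.0561).

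DUSP10 was at 171, 170.3, 179 and 173 in low-glucose MDA-MB-468 and at 117, 137, 116 and 121 in high glucose. Its groups stood well apart, and the mean fell by 29.3% (log2 fold change -0.50 ± 0.09, limma adjusted p = 0.000173). DUSP5 read 187, 177, 183 and 186 in low and 136, 135, 135 and 129 in high glucose. This was the tightest of the falls, and the mean fell by 27.0% (-0.45 ± 0.08, adjusted p = 0.000176). DUSP5 and SPRED2 were the only members that passed the test in both lines, DUSP5 lower in both and SPRED2 in opposite directions.

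Among the rises in MDA-MB-468, SPRED1 had the largest. It read 287, 304, 297 and 292 in low glucose and 440.4, 402, 409 and 359.9 in high glucose. Every high-glucose sample was above every low-glucose one, and the mean rose by 36.5% (log2 fold change 0.44 ± 0.07, limma adjusted p = 3.40e-05). SPRED2 rose from 361, 397, 354 and 397 to 478, 461, 448 and 491, again without overlap (0.32 ± 0.06, adjusted p = 0.000317). DUSP4 rose by 14.2% (0.19 ± 0.05, adjusted p = 0.00744). For DUSP4 the lowest high-glucose value, 695, lay just above the highest low-glucose value, 677.

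DUSP1 and SPRY2 were the 2 members without a call in MDA-MB-468. DUSP1 read 104, 125, 95.4 and 103 in low and 96.2, 119.1, 103 and 117 in high glucose, fully overlapping (log2 fold change 0.03 ± 0.11, limma adjusted p = 0.857), with a 95% interval from -0.21 to 0.27. SPRY2 read 282, 275, 275 and 262 in low and 218, 267, 254 and 233 in high glucose. Its fold change of -0.18 ± 0.07 stayed short of the threshold (adjusted p = 0.0600) and passed it in 5 of 20 alternatives, edgeR on recovered reads (adjusted p = 0.0480) and limma without high-glucose replicate 2 (adjusted p = 0.0233) among them.

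**Figure D4:**
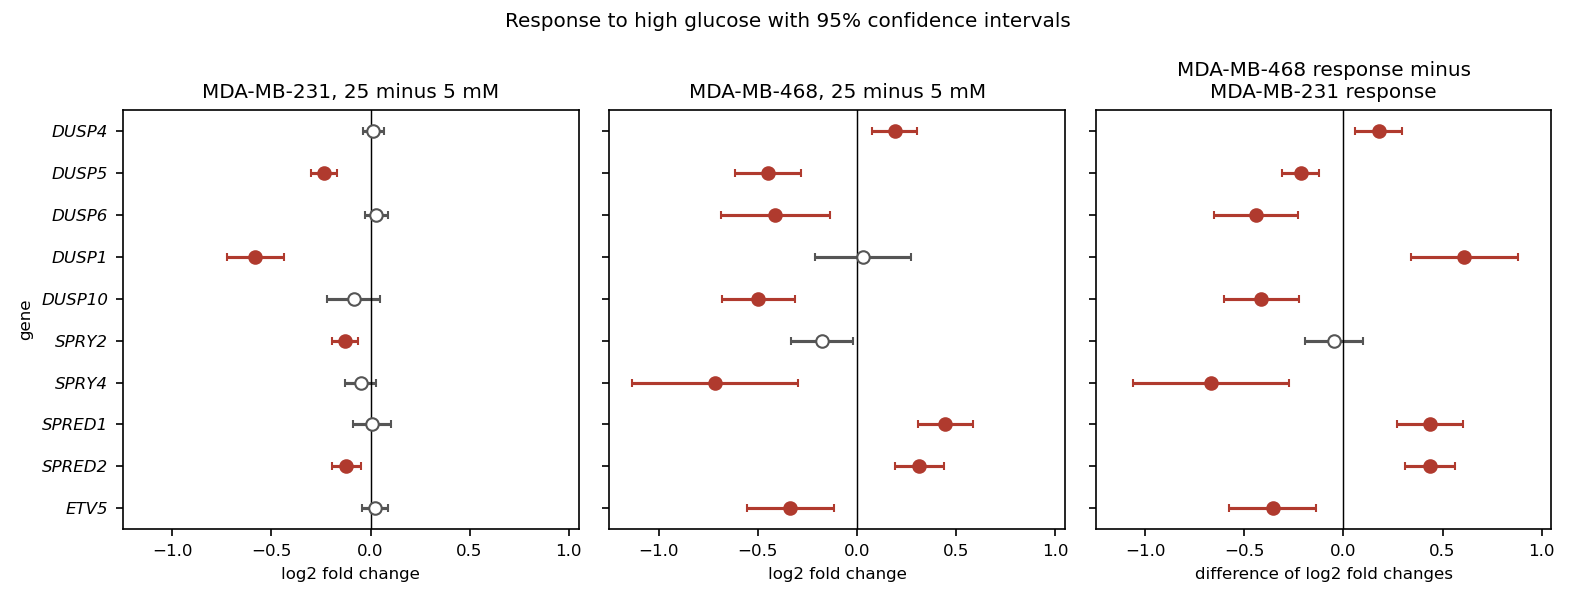
Log2 fold change from 5 to 25 mM glucose with its 95% confidence interval for the 10 genes in MDA-MB-231 (left) and MDA-MB-468 (middle), and the difference of both responses (right), from limma over 4 replicates a group; filled red points have an adjusted p under 0.05 over all genes and open points do not. DUSP1 is filled on the left and open in the middle, SPRED1 and SPRED2 lie right of 0 in the middle, and 9 of 10 differences on the right are filled.

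Responses to glucose differed between the lines for 9 of the 10 genes in the interaction test over 16 samples, all but SPRY2. Over all 17115 genes tested, 30.9% differed, 17% with a higher response in MDA-MB-468 and 13.9% with a lower one. DUSP1, DUSP4, SPRED1 and SPRED2 had the higher response in MDA-MB-468, and DUSP5, DUSP6, DUSP10, SPRY4 and ETV5 the lower one. DUSP1 had a difference of 0.61 ± 0.13 on the log2 scale (limma adjusted p = 0.00153), the fall being in MDA-MB-231. SPRED2 had the smallest adjusted p (3.29e-05) at a difference of 0.44 ± 0.06, and SPRED1 had the same size of difference (0.44 ± 0.08, adjusted p = 0.000428). DUSP5 fell in both lines, and by more in MDA-MB-468 (difference -0.22 ± 0.04, adjusted p = 0.00124). For the ERK readout genes the differences were -0.67 ± 0.19 for SPRY4 (adjusted p = 0.0114), -0.44 ± 0.10 for DUSP6 (adjusted p = 0.00287) and -0.36 ± 0.10 for ETV5 (adjusted p = 0.0143). The DUSP4 difference of 0.18 ± 0.06 (adjusted p = 0.0215) was lost with quantile normalization (adjusted p = 0.226). For SPRY2 the difference was -0.05 ± 0.07 (adjusted p = 0.656), with a 95% interval from -0.19 to 0.10. These differences use the same libraries as the responses within each line.

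The members' levels in MDA-MB-468 are low, and their replicates spread more there. The median coefficient of variation over the 10 genes was 2.20% in low-glucose and 2.38% in high-glucose MDA-MB-231, against 5.78% and 8.59% in MDA-MB-468. SPRY4, at 25.3 to 64.8 normalized reads in this line, rests on the fewest reads.

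DUSP6 was followed further across the 16 samples, after the mean of each line was subtracted from log2 values. The 5 genes most alike were FUT8 (Pearson r = 0.953), a fucosyltransferase gene, STS (0.934), the steroid sulfatase gene, LINC01444 (0.933), CLEC7A (0.926) and SLFN12 (0.922). Within MDA-MB-468 alone r was 0.932 to 0.958 for these genes. Within MDA-MB-231 it was 0.641 for FUT8, 0.625 for STS, 0.070 for LINC01444 and -0.202 for SLFN12, and CLEC7A had no r because its values did not vary there. LINC01444 passed the filter on low values through MDA-MB-231 alone and CLEC7A through MDA-MB-468 alone. The r of LINC01444 within MDA-MB-468 thus rests on values too low for that filter. Among the members, ETV5 (0.893) and SPRY4 (0.8505) were most like DUSP6, then DUSP5 (0.714) and DUSP10 (0.688). SPRY2 had an r of 0.310 and DUSP1 of -0.171, while SPRED1 (-0.597), SPRED2 (-0.699) and DUSP4 (-0.726) had negative values. This order did not hold within MDA-MB-231, where r was 0.257 for ETV5, 0.493 for SPRED1, -0.535 for SPRY4, -0.475 for DUSP5 and -0.602 for DUSP10. These values are a description, since the samples share 2 lines and 2 glucose levels, and the 5 genes were the highest of all those compared. Glucose group means were not subtracted, so r also holds the glucose responses given above and is no separate result.

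Genes around the members were read from lists that were chosen with earlier results of these data known. Their shares beside those of all genes are thus a description and no test of a list. Of 5 other MAP kinase phosphatases, DUSP7 (log2 fold change 0.28, limma adjusted p = 0.0176) and DUSP16 (0.16, adjusted p = 0.0422) rose in MDA-MB-468 and 0 fell, a share near the 47.6% of all genes called there. In MDA-MB-231, 0 of 4 tested passed, beside 15.1% of all genes. Of the other Sprouty and Spred genes 0 of 3 tested passed in MDA-MB-231 and 0 of 2 in MDA-MB-468. ETV1, a PEA3 factor like ETV5, fell in MDA-MB-468 from 68.0, 87.4, 56.9 and 69.2 to 46.7, 38.2, 27.5 and 27.8 (-1.003 ± 0.19, adjusted p = 0.000393). In MDA-MB-231 it did not pass (adjusted p = 0.886), and ETV4, the third PEA3 factor, passed in neither line. Between the lines in low glucose, 3 of the 5 other phosphatases were higher in MDA-MB-468 and 1 was lower, with a median difference of 0.54. Of the 3 other Sprouty and Spred genes, 1 was higher there and 2 were lower. The 2 other PEA3 factors were both lower, and of all genes 45% were higher and 40.4% lower.

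Of 10 other genes that ERK is known to turn on, 6 fell in MDA-MB-231, against 7 in MDA-MB-468, and 0 rose in either line. Over all genes 9.37% fell and 5.71% rose in MDA-MB-231, and 22.7% fell and 24.9% rose in MDA-MB-468. The list's median log2 fold changes were -0.14 and -0.27, beside 0.00 for all genes tested in each line. EGR1, an immediate early transcription factor, fell in MDA-MB-231 from 433, 421, 455 and 378 to 257, 225, 264 and 257 (-0.75 ± 0.07, limma adjusted p = 1.31e-06), without overlap. In MDA-MB-468 it fell less (-0.23 ± 0.07, adjusted p = 0.0155), and this difference between the lines passed its own test (adjusted p = 0.00103). MYC fell in MDA-MB-231 (-0.23), and FOSL1 (-0.73) and EPHA2 (-0.51) fell furthest in MDA-MB-468. Between the lines, 9 of these 10 genes were lower in MDA-MB-468 in low glucose and 0 were higher, beside 40.4% of all genes lower and 45% higher, with a median difference of -1.43. FOSL1, a subunit of AP-1, differed by -7.15.

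Of 20 genes of the cascade that leads to ERK, from EGFR to the RSK kinases, 0 rose and 3 fell in MDA-MB-231, close to the 15.1% of all genes called in that line, among them MAP2K1 (-0.16), which encodes MEK1, and EGFR (-0.13). In MDA-MB-468, 5 rose and 5 fell, beside 47.6% of all genes called, with RPS6KA3 (-0.24), an RSK kinase gene, and SOS1 (-0.21), a RAS activator, as the largest falls. In low glucose 8 of the 20 were higher and 12 lower in MDA-MB-468, beside 45% and 40.4% of all genes, with a median difference of -0.35. EGFR itself was higher in MDA-MB-468 by 2.78 on the log2 scale.

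Of 11 other inhibitors of receptor and RAS signaling, ERRFI1 rose (0.12) and CBL (-0.14) and RASAL2 (-0.14) fell in MDA-MB-231. In MDA-MB-468 LRIG1 rose (0.25) and 6 fell, NF1 (-0.33), a RAS GTPase activator, and the ubiquitin ligase gene CBL (-0.32) the most. Among all genes tested, 5.71% rose and 9.37% fell in MDA-MB-231, and 24.9% rose and 22.7% fell in MDA-MB-468. Of 10 genes of the stress kinase cascades, the p38 genes MAPK13 and MAPK12 rose in both lines, by 0.35 and 0.23 in MDA-MB-231 and by 0.36 and 0.31 in the other line. MAPK9, a JNK gene, fell in MDA-MB-468 (-0.57), where every high-glucose value (2131 to 2183) lay below every low-glucose value (3092 to 3421). In all, 2 of the stress kinase genes rose and 0 fell in MDA-MB-231. In MDA-MB-468, 2 rose and 1 fell, beside the same all-gene shares of 15.1% and 47.6%. In low glucose 4 of the 10 stress kinase genes and 4 of the 11 inhibitors were higher in MDA-MB-468, and 5 and 7 were lower, beside 85.4% of all genes that differed between the lines.

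**Figure D5:**
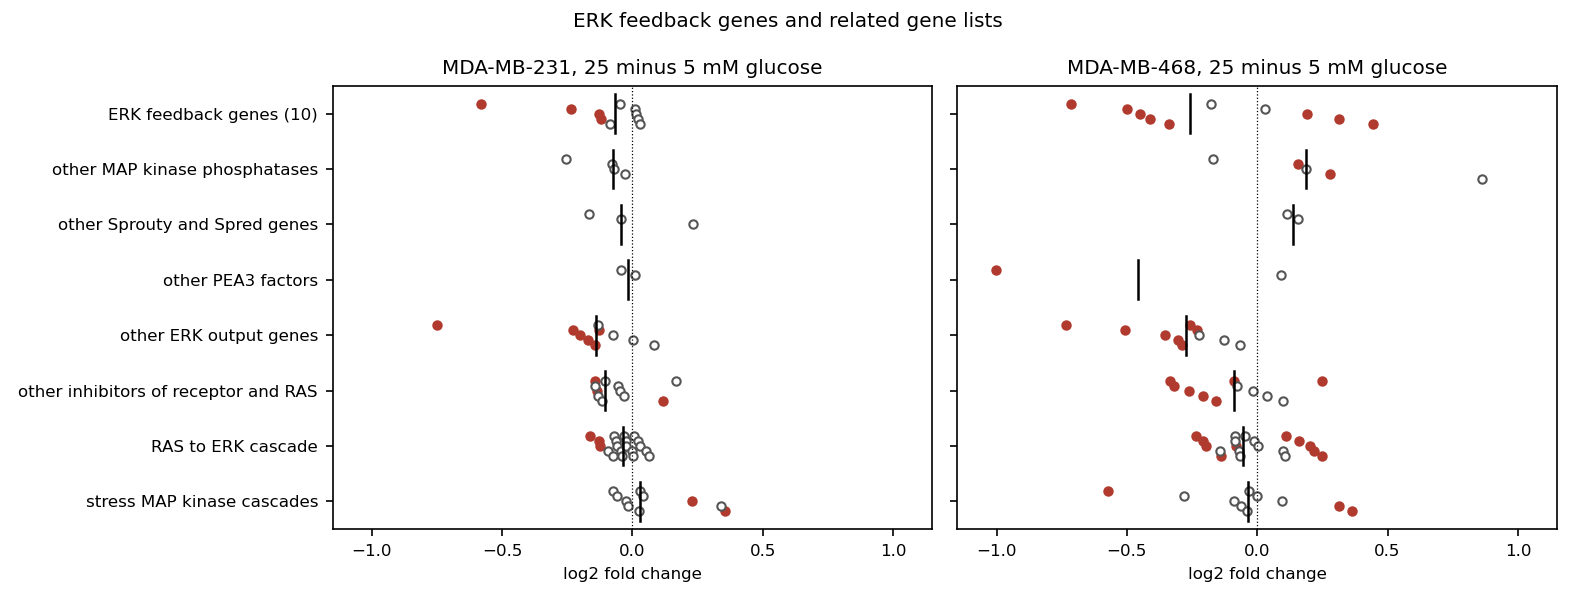
Log2 fold change from 5 to 25 mM glucose in MDA-MB-231 (left) and MDA-MB-468 (right) for each tested gene of the member list and 7 related lists; filled red points have an adjusted p under 0.05 over all genes, open points do not, and black bars are list medians. The other ERK output genes have medians of -0.14 and -0.27, with 0 filled points right of 0 in either line.

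Positions are given for 9 of the 10 genes, on GRCh37 from gene start to gene end, and that of DUSP4 (ENSG00000120875) is not listed here. DUSP1 (ENSG00000120129) is at chr5:172195099-172198198 and SPRY4 (ENSG00000187678) at chr5:141689992-141706020. DUSP5 (ENSG00000138166) is at chr10:112257665-112271291 and DUSP6 (ENSG00000139318) at chr12:89741012-89746278. DUSP10 (ENSG00000143507) is at chr1:221874766-221915431, SPRY2 (ENSG00000136158) at chr13:80910111-80915261 and SPRED1 (ENSG00000166068) at chr15:38545037-38649450. SPRED2 (ENSG00000198369) is at chr2:65537985-65659771 and ETV5 (ENSG00000244405) at chr3:185764103-185828107. SPRY4 shares its start region with the antisense gene SPRY4-AS1, which reached at most 13.6 normalized reads, and reads of either strand could not be told apart, since the sources used here do not say whether counting used strand. Genes annotated over parts of DUSP1, DUSP6, SPRED2 and ETV5 were not analysed here.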

How the data were processed

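RNA was sequenced in 16 samples, 4 replicates in each of 4 groups taken from the labels. Per the paper's methods, the authors trimmed reads, aligned them to hg19 with TopHat and an Ensembl annotation and counted reads per gene. They also name CPM scaled by TMM in edgeR, which the deposited values are not. The submitters' processing notes name edgeR and the build hg38, and the counting program and its use of strand are not given in the sources used here. The deposited values are a normalized signal, made by the authors by dividing each library's reads per gene by its size factor. Whole reads were recovered for 100% of values (tolerance 0.01, largest deviation 5.40e-05). Of 18332 Ensembl IDs, 16633 got a symbol from a list of gene names and 17418 a transcript length from the GENCODE annotation on GRCh37.

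A gene entered a fit if 2 or more samples reached 0.5 CPM. The test was limma 3.58.1 (R 4.3.3), run on log2(value + 1) with lmFit and eBayes with trend, two-sided, and Benjamini-Hochberg adjustment over all genes (threshold 0.05). Fold changes are on that scale, which understates changes of low genes. Each line's 8 samples gave its glucose response. All 16 samples gave the interaction and the line contrast, which depends on the authors' scaling across lines. Labels do not say that replicates were separate cultures, so p-values measure the spread between these samples, which may be technical. Alternatives were other pseudocounts, filters and scalings, a gene-wise linear model, a replicate block, a length correction, leaving out each replicate, and edgeR 4.0.16 (quasi-likelihood) and DESeq2 1.42.0 on recovered reads. Named from each list were its called genes with the largest change in each line, at most 2 in each direction. ETV4 and the list genes named between lines were chosen after their values were seen. The members and lists were chosen with earlier results of these data known. The limma and edgeR steps were tested on simulated data. Both lines were drawn there from MDA-MB-231 means, a simpler setting than these samples, and DESeq2 was not run on them. Some genes of the lists are counted but not reported by name here.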

Additional observations from a re-analysis of the deposited data

Results flagged for a closer look

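Within groups, 40 sets of 4 replicates (10 genes in 4 groups) were checked for a sample far from the other 3, and 2 stood out, where chance gives about 1 in 20. Both came from replicate 4 of high-glucose MDA-MB-468. DUSP4 read 782 there against 694.8 to 701 in the other replicates, and without this replicate its rise was 0.15 on the log2 scale (limma adjusted p = 0.0309). DUSP5 read 129 there against 135 to 136, and without this replicate its fall was -0.43 (limma adjusted p = 0.000729).

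The response to glucose differed between the lines in its own test for 9 genes, given as the MDA-MB-468 response minus the MDA-MB-231 response on the log2 scale. It was 0.61 for DUSP1, 0.18 for DUSP4, 0.44 for SPRED1 and 0.44 for SPRED2. It was -0.22 for DUSP5, -0.44 for DUSP6, -0.41 for DUSP10, -0.67 for SPRY4 and -0.36 for ETV5.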

How the results depend on the processing

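Of 960 values of the 10 genes under the alternatives, 938 kept their direction and side of the threshold, 10 lost the call, 5 gained it and 7 changed sign. All 280 line differences were among the unchanged. Members called in MDA-MB-231 went from 4 to 2 with quantile normalization, where 1027 of all genes were called higher and 1114 lower. All genes called in that line went from 2245 to 1297 with the gene-wise linear model. The cause was not tested. The sign changes all came from leaving out a replicate, in genes without a call. SPRED1 in MDA-MB-231 then ran from -0.023 to 0.042, DUSP1 in MDA-MB-468 from -0.023 to 0.11 and the SPRY2 difference between lines from -0.094 to 0.0029. ETV5 in MDA-MB-468 lost its call with the gene-wise linear model (adjusted p = 0.0561). Length correction moved the median line difference of all genes from 0.08 to -0.06. Same-numbered replicates did not deviate together (correlations -0.04 to -0.00512 in MDA-MB-231 and 0.0167 to 0.0319 in MDA-MB-468), and not every sample correlated best with its own number in either line. With the replicate block, members called were 3 in MDA-MB-231 (1624 of all genes) and 8 in MDA-MB-468 (7383). They were 9 for the difference between lines (4774) and 10 between lines in low glucose (13159). SPRED2 in MDA-MB-231 lost its call under the block (adjusted p = 0.0696). Depth limits the lowest values, those of SPRY4 in MDA-MB-468 (25.3 to 64.8 normalized reads).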
